A study of Mus musculus with 15 samples.

Results

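mmu-miR-31-5p, mmu-miR-582-3p, mmu-miR-345-5p, mmu-miR-374b-5p and mmu-miR-340-5p (mmu, for mouse, is left out below) are 5 of the 248 mature miRNAs listed from small-RNA sequencing of Kupffer cells, macrophages that live in the blood sinusoids of the liver. They were chosen because their levels were higher in obese ob/ob mice than in lean controls, so the difference between the genotypes is described below and not tested. The controls were C57BL/6J mice (wt), with 4 libraries at 9 weeks of age and 4 at 14 weeks. The obese animals carried ob/ob, a loss of the satiety hormone leptin in every cell, with 3 libraries at 9 weeks and 4 at 14 weeks. The labels give no treatment, no background strain for ob/ob and no word on whether a library came from a single animal or a pool, so the spread between libraries may be technical. Of the hairpins that give these miRNAs, the other arm is also listed for 2, as miR-582-5p and miR-340-3p, and a neighbour of miR-374b is listed as miR-421-3p.

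A miRNA is cut from a hairpin precursor by the nucleases Drosha and Dicer, which leave a duplex of a 5p and a 3p arm. An Argonaute protein keeps mainly a single arm, and this arm silences mRNAs that pair with its seed, bases 2 to 8. Both arms of a hairpin are made together, and the arm that is not kept is soon degraded. In macrophages, miRNAs are known as regulators of inflammatory signalling and lipid handling.

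The 5 mature sequences are shown here because they share neither seed nor family. They are written 5′ to 3′ from RefSeq on GRCm38.p6, with the seed in capitals.
miR-582-3p: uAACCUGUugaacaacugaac
miR-340-5p: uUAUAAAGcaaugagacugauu
miR-374b-5p: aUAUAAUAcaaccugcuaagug
miR-31-5p: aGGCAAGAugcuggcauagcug
miR-345-5p: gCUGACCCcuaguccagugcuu

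No other listed miRNA with a sequence (218 of the 248) had the seed of any of these 5, and neither had any other of the 1679 mature mouse miRNAs in RefSeq. The letters UAUAA lie within the first 8 bases of both miR-340-5p and miR-374b-5p. Read on the mature strand, they occur there in 3 of the 218 listed sequences (1.38%), the third being miR-410-3p, and in 0.417% of all mature sequences. The 5 differ widely in base composition. miR-340-5p has 27.3% G and C, and 1 listed sequence has less. miR-374b-5p has 31.8%, miR-582-3p 38.1%, miR-31-5p 54.5% and miR-345-5p 59.1%, against a median of 45.5% among the miRNAs tested.

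Levels are reads per 1000000 (RPM) as the authors deposited them, in 1 table per age. The worth of 1 read, taken from the lowest values, implies 9.08 to 98.1 M reads per library (M for 1000000), and every ob/ob library was deeper than every wt library of its age (22.8 M at most in wt and 25.9 M at least in ob/ob at 9 weeks, and 39.0 and 44.0 M at 14 weeks). The listed miRNAs summed to 147387 RPM in wt replicate 1 of 14 weeks, which is also the shallowest library, and to 230785 RPM or more in the others. As deposited, all 179 miRNAs tested at 9 weeks had a median log2 fold change of -0.51 in ob/ob, and the 171 tested at 14 weeks one of 0.20. Fold changes are therefore given as deposited and after median-ratio rescaling, which sets these medians to about 0. Both are differences of log2(RPM + 0.5), a scale that understates changes of rare miRNAs.

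All 5 miRNAs had the same order of group means, lowest in wt at 14 weeks, then wt at 9 weeks, then ob/ob at 9 weeks, and highest in ob/ob at 14 weeks. That ob/ob stood above wt reflects how the 5 were chosen. The wt means of miR-345-5p were nearly equal, at 4.51 ± 0.61 RPM (SD) at 9 weeks and 4.44 ± 2.09 RPM at 14 weeks. Within wt of 14 weeks, replicate 1, with the low sum, was the lowest library for each of the 5 but miR-31-5p (1.76 RPM for miR-345-5p). The wt libraries of both ages overlapped for each of the 5. The ob/ob libraries of both ages overlapped for miR-31-5p and miR-340-5p and stood apart for miR-582-3p, miR-345-5p and miR-374b-5p. The listed miRNAs summed to 230785 to 250422 RPM in ob/ob at 9 weeks and to 272978 to 333502 RPM at 14 weeks. A shift of the whole table may thus enter here. The share of all miRNAs set apart between the ages was not examined, so nothing is read from this. Since the ages were deposited in separate tables, levels across ages are set side by side without a test. Within an age, on RPM as deposited, every ob/ob library was above every wt library for 4 of the 5 at 9 weeks. At that age 7.26% of all tested miRNAs showed this. At 14 weeks it held for 5 of 5, beside 22.2% of all tested. In the limma fit over all miRNAs (adjusted p under 0.05), 2 of the 5 were called higher at 9 weeks, beside 5.03% of all tested, and 5 of 5 at 14 weeks, beside 11.7%. After rescaling 5 of 5 were called at each age, beside 11.3% and 15.5% called higher. The choice of the 5 rests on this contrast, so nothing is read from these counts. Over all miRNAs, 9 were higher and 58 lower at 9 weeks as deposited (37.4% called in either direction), and 20 and 18 after rescaling (21.5%). At 14 weeks the split was 20 higher and 6 lower (15.2%), and 26 and 22 after rescaling (28.6%). In bulk RNA, a change in the share of a cell type and a change in the RNA per cell cannot be told apart.

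**Figure D1:**
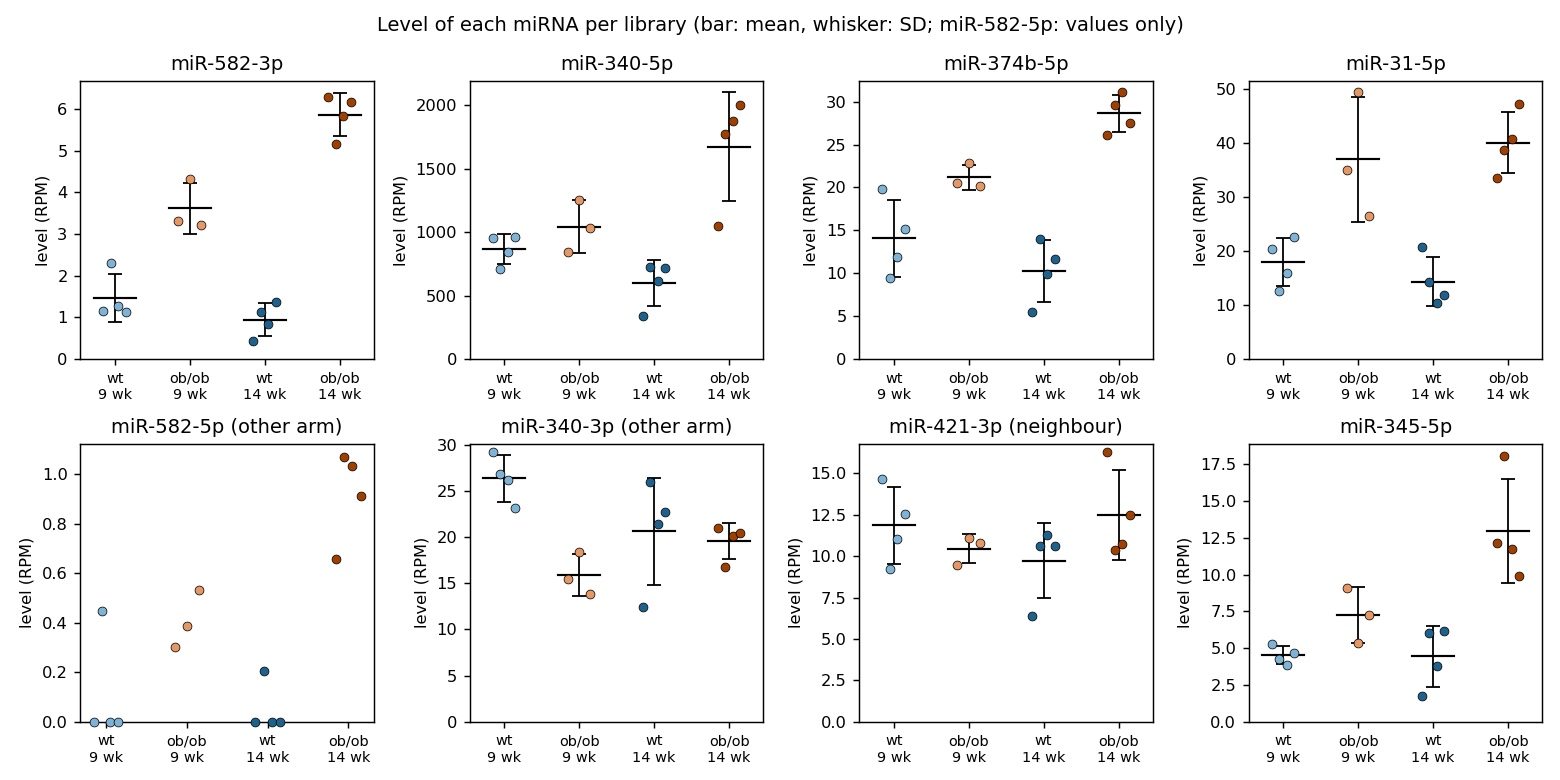
Level in RPM of the 5 miRNAs, of the other arms miR-582-5p and miR-340-3p and of the neighbour miR-421-3p, with 1 point per library, the group mean as a bar and the SD as a whisker (wt n = 4 at each age, ob/ob n = 3 at 9 weeks and 4 at 14 weeks; miR-582-5p as values only). miR-582-3p runs from 0.440 to 1.37 RPM in wt and from 5.15 to 6.29 RPM in ob/ob at 14 weeks, while miR-340-3p, unlike miR-340-5p, has no higher group mean in ob/ob at either age.

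miR-582 lies on chromosome 13 (chr13:109324744-109324824, plus strand, GRCm38.p6) in an intron of Pde4d, the gene of a phosphodiesterase that breaks down cyclic AMP. Both arms of its hairpin are listed, and they are shown in capitals because both were higher in ob/ob at 14 weeks.
Mir582 hairpin: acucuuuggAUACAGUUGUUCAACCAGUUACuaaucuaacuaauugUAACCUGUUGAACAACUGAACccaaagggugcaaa

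miR-582-3p, the rarest of the 5, was at 1.14, 2.31, 1.28 and 1.12 RPM in wt replicates 1 to 4 of 9 weeks and at 3.30, 4.33 and 3.22 RPM in ob/ob replicates 1 to 3. At 14 weeks wt replicates 1 to 4 held 0.440, 1.13, 0.844 and 1.37 RPM and ob/ob replicates 1 to 4 held 6.29, 5.15, 5.83 and 6.17 RPM. The groups did not overlap at either age, and wt replicate 2 was the highest control at 9 weeks. The means were 1.46 ± 0.57 (SD, n = 4) and 3.62 ± 0.62 RPM (n = 3) at 9 weeks, and 0.946 ± 0.400 and 5.86 ± 0.51 RPM (n = 4 each) at 14 weeks. The log2 fold change was 1.10 ± 0.27 (SE) at 9 weeks, or 1.51 ± 0.26 rescaled, and 2.18 ± 0.26 at 14 weeks, or 2.02 ± 0.21 rescaled. That at 14 weeks was the fifth highest of the 171 tested. These levels rest on 16 to 44 reads in 7 of the 8 wt libraries and on 4 reads in wt replicate 1 of 14 weeks (exact Poisson 95% interval 0.120 to 1.13 RPM, for counting error only). The ob/ob libraries had 109 to 112 reads at 9 weeks and 277 to 505 at 14 weeks.

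The other arm, miR-582-5p, was listed at 0 in wt replicates 1, 3 and 4 of both ages. Replicate 2 had 0.447 RPM at 9 weeks and 0.205 RPM at 14 weeks. It was present in every ob/ob library, at 0.300, 0.386 and 0.531 RPM at 9 weeks and at 0.658, 1.07, 1.03 and 0.912 RPM at 14 weeks, on 10 to 105 reads. In the wt libraries listed at 0, 3 reads would stand for at most 0.213 RPM at 9 weeks and 0.330 RPM at 14 weeks, which is below every ob/ob value of the same age. At 9 weeks the groups overlapped through wt replicate 2, and at 14 weeks they did not. miR-582-5p was too rare to be tested at either age. In the ob/ob libraries miR-582-3p outnumbered it 9.42 ± 2.91-fold at 9 weeks and 6.69 ± 2.07-fold at 14 weeks, and in the only wt library of each age with both arms 5.17-fold and 5.50-fold.

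miR-340 lies on chromosome 11 (chr11:50069702-50069799, plus strand, GRCm38.p6) in an intron of Rnf130, which encodes a RING finger protein. Its hairpin is shown with both arms in capitals because these arms differed in their change with genotype.
Mir340 hairpin: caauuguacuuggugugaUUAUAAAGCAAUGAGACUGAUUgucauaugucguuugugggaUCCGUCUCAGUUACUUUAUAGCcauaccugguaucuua

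miR-340-5p was by far the most abundant of the 5 and ranked from 23 to 33 among the 248 listed, depending on the group. At 9 weeks wt replicates 1 to 4 had 954.9, 709.7, 840.1 and 957.8 RPM and ob/ob replicates 1 to 3 had 841.5, 1255 and 1030 RPM. The genotypes overlapped there, since ob/ob replicate 1 lay within the wt range. At 14 weeks the wt libraries had 338.4, 726.3, 616.9 and 716.0 RPM and the ob/ob libraries 1047, 1776, 1875 and 1999 RPM. No ob/ob library was within the wt range at this age, with replicate 1 the lowest in both genotypes. Means were 865.6 ± 117.5 and 1042 ± 207 RPM at 9 weeks and 599.4 ± 180.8 and 1674 ± 428 RPM at 14 weeks. The log2 fold change was 0.26 ± 0.20 as deposited and 0.77 ± 0.19 rescaled at 9 weeks, and 1.50 ± 0.33 and 1.28 ± 0.25 at 14 weeks.

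The other arm, miR-340-3p, was not chosen for its change. It was at 29.3, 26.9, 26.2 and 23.2 RPM in wt and 15.5, 18.3 and 13.9 RPM in ob/ob at 9 weeks, with every ob/ob library below every wt library, as for 41.3% of all tested miRNAs. This fall, -0.72 ± 0.19 on the log2 scale, passed the limma test as deposited (adjusted p = 0.0207), where the median of all miRNAs was -0.51. It was -0.22 ± 0.17 after rescaling (adjusted p = 0.374), and the adjusted p ran from 0.0135 to 0.374 over the settings tried. The call was also lost when ob/ob replicate 1 was left out (adjusted p = 0.0585), and likewise for ob/ob replicate 3 (adjusted p = 0.0636). At 14 weeks the wt libraries had 12.4, 26.0, 21.4 and 22.7 RPM and the ob/ob libraries 21.0, 16.8, 20.1 and 20.5 RPM. These groups overlapped (5.26% of all tested miRNAs had every ob/ob library below every wt library at this age), with a log2 fold change of -0.03 ± 0.28 (adjusted p = 0.954) as deposited and -0.24 ± 0.18 (adjusted p = 0.378) rescaled.

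Within a library, the ratio of the arms does not depend on how the library was scaled. In wt, miR-340-5p exceeded miR-340-3p by 32.6, 26.4, 32.1 and 41.4-fold at 9 weeks and by 27.2, 27.9, 28.8 and 31.5-fold at 14 weeks. In ob/ob it did so by 54.3, 68.4 and 74.1-fold at 9 weeks and by 49.8, 105.9, 93.2 and 97.7-fold at 14 weeks. Every ob/ob ratio was above every wt ratio of either age. The mean log2 ratio was higher in ob/ob by 0.99 ± 0.19 (SE) at 9 weeks and by 1.53 ± 0.25 at 14 weeks. wt replicate 1 of 14 weeks, with the low sum, had a ratio next to that of the other wt libraries. A correction for GC content, described further on, lowers the gap at 14 weeks to 1.0. These differences are a description, because miR-340-5p was chosen on its level. How often the arms of other hairpins are set apart in this way was not examined.

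miR-374b lies on the X chromosome (chrX:103573060-103573154, minus strand, GRCm38.p6) in an intron of Ftx, a long noncoding RNA of the X-inactivation centre. The hairpin of miR-421 follows it in the same intron after 63 bases. On the opposite strand of the miR-374b locus, RefSeq annotates miR-374c, whose 5p arm is shown because it is identical to bases 3 to 22 of miR-374b-5p.
miR-374c-5p: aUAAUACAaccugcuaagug
miR-374c-5p is not among the listed miRNAs, so a read of the shared stretch cannot be given to either, and the values of miR-374b-5p carry this uncertainty.

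miR-374b-5p was at 19.8, 9.39, 11.9 and 15.2 RPM in wt and at 20.6, 22.9 and 20.1 RPM in ob/ob at 9 weeks. The groups just missed each other there, with wt replicate 1 close to the ob/ob libraries. At 14 weeks it was at 5.51, 14.0, 9.91 and 11.7 RPM in wt and at 26.2, 29.7, 31.1 and 27.5 RPM in ob/ob, far apart. Means were 14.1 ± 4.47 and 21.2 ± 1.46 RPM at 9 weeks and 10.3 ± 3.59 and 28.6 ± 2.20 RPM at 14 weeks. The log2 fold change was 0.62 ± 0.27 and rescaled 1.12 ± 0.25 at 9 weeks, and 1.50 ± 0.30 and rescaled 1.30 ± 0.18 at 14 weeks.

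miR-421-3p, of the neighbouring hairpin and not chosen for its change, was at 9.24 to 14.7 RPM in wt and 9.46 to 11.1 RPM in ob/ob at 9 weeks. At 14 weeks it was at 6.39 to 11.3 and 10.4 to 16.3 RPM, and the genotypes overlapped at both ages. Its log2 fold change was -0.16 ± 0.22 (limma adjusted p = 0.586) at 9 weeks and 0.35 ± 0.27 (adjusted p = 0.434) at 14 weeks, and 0.33 ± 0.20 and 0.15 ± 0.21 rescaled (adjusted p = 0.268 and 0.628). The ratio of miR-374b-5p to miR-421-3p was 1.02 to 1.35 in wt and 1.86 to 2.17 in ob/ob at 9 weeks, and 0.862 to 1.32 and 1.60 to 2.90 at 14 weeks. Again every ob/ob ratio was above every wt ratio, and the mean log2 ratio was higher by 0.81 ± 0.11 (SE) at 9 weeks and by 1.19 ± 0.25 at 14 weeks. These differences are a description too, because miR-374b-5p was chosen on its level and miR-421-3p was not. How often the ratios of other neighbours are set apart was not examined. The GC correction described further on lowers the rescaled fold change of miR-374b-5p at 14 weeks from 1.30 to 0.74. It could not be made for miR-421-3p, whose sequence was not at hand, nor for this ratio.

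**Figure D2:**
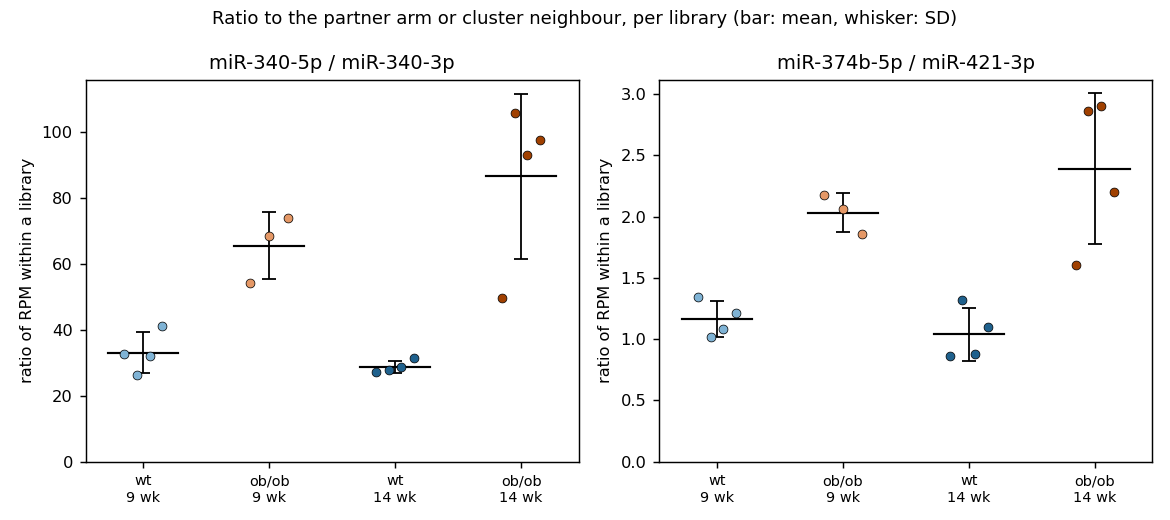
Ratio of the RPM values of miR-340-5p to miR-340-3p (left) and of miR-374b-5p to miR-421-3p (right) within each library, with 1 point per library, the mean as a bar and the SD as a whisker (wt n = 4 at each age, ob/ob n = 3 and 4). Ratios of miR-340 reach 41.4 at most in wt and 49.8 at least in ob/ob.

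miR-31 lies on chromosome 4 (chr4:88910557-88910662, minus strand, GRCm38.p6) in an exon of a long intergenic noncoding RNA, AL805899.1. The miRNA is known from epithelial cells and, in human, as a repressor of FOXP3 in T cells. miR-31-5p was at 20.5, 12.7, 16.0 and 22.6 RPM in wt and at 35.0, 49.6 and 26.5 RPM in ob/ob at 9 weeks. At 14 weeks it was at 20.7, 14.2, 10.4 and 11.9 RPM in wt and at 33.6, 38.8, 40.9 and 47.3 RPM in ob/ob. As deposited, no library of one genotype lay within the range of the other. Whether this holds after rescaling was not examined. As deposited, wt replicate 1 of 14 weeks was here the highest wt library of its age, unlike for the other 4. Means were 17.9 ± 4.46 and 37.0 ± 11.7 RPM at 9 weeks and 14.3 ± 4.54 and 40.1 ± 5.70 RPM at 14 weeks. The log2 fold change was 1.01 ± 0.29 and rescaled 1.51 ± 0.27 at 9 weeks. At 14 weeks it was 1.49 ± 0.27 and rescaled 1.28 ± 0.40. Rescaled without wt replicate 1 of 14 weeks, it was 1.69 ± 0.23 there, so this library weighs on the rescaled value.

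miR-345 lies on chromosome 12 (chr12:108836973-108837068, plus strand, GRCm38.p6) within Slc25a47, which encodes a mitochondrial carrier found mainly in liver. The hairpin overlaps an exon in 1 of the 3 transcripts that span it. miR-345-5p was at 5.27, 4.25, 3.84 and 4.69 RPM in wt and at 9.13, 5.33 and 7.26 RPM in ob/ob at 9 weeks, where ob/ob replicate 2 was barely above the highest wt library. At 14 weeks it was at 1.76, 6.05, 3.80 and 6.15 RPM in wt and at 12.1, 18.1, 11.8 and 9.92 RPM in ob/ob. The groups stood apart there, and wt replicate 1 was the lowest with 16 reads. Means were 4.51 ± 0.61 and 7.24 ± 1.90 RPM at 9 weeks and 4.44 ± 2.09 and 13.0 ± 3.54 RPM at 14 weeks. The log2 fold change was 0.61 ± 0.24 and rescaled 1.07 ± 0.24 at 9 weeks, and 1.54 ± 0.38 and rescaled 1.35 ± 0.26 at 14 weeks.

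**Figure D3:**
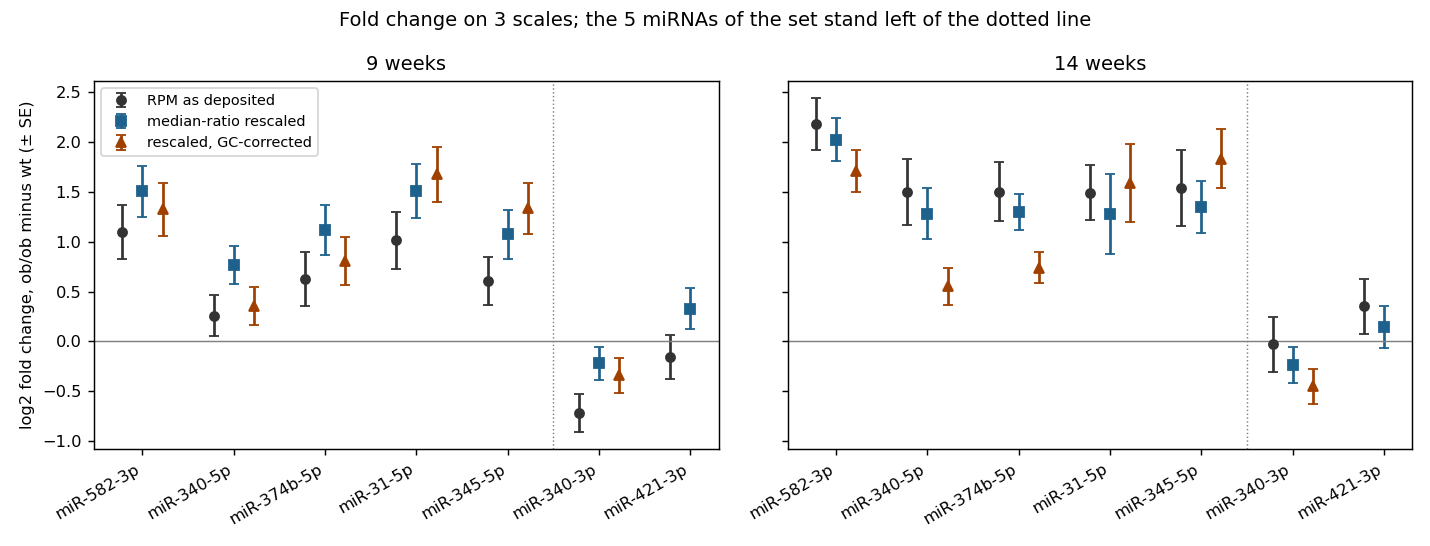
Log2 fold change of ob/ob against wt (± SE, limma) at 9 weeks (left, wt n = 4, ob/ob n = 3) and 14 weeks (right, n = 4 each), for RPM as deposited, after median-ratio rescaling and after rescaling with a GC correction. The 5 miRNAs, left of the dotted line, lie above 0 on each scale, miR-340-3p and miR-421-3p stand to its right, and the correction moves miR-340-5p at 14 weeks from 1.28 to 0.55.

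The labels place all libraries of 9 weeks in sequencing lane 2. Those of 14 weeks were split by replicate number, with 1 and 2 in lane 1 and 3 and 4 in lane 2. The log2 fold changes in lane 1 and lane 2 were 2.32 and 2.04 for miR-582-3p, 1.46 and 1.54 for miR-340-5p, 1.60 and 1.40 for miR-374b-5p, 1.05 and 1.94 for miR-31-5p, and 1.99 and 1.08 for miR-345-5p. The lanes were furthest apart for miR-31-5p and miR-345-5p, in opposite order. Each lane held 2 libraries per genotype, and the SE for these miRNAs was 0.80 and 0.78 in lane 1 and 0.20 and 0.30 in lane 2. Lane 1 holds wt replicate 1, the highest wt library of its age for miR-31-5p (20.7 RPM) and the lowest for miR-345-5p (1.76 RPM). The part of this library and of the lane in that order was not tested. All 5 miRNAs were higher in ob/ob in both lanes. That had to follow, because for all 5 every ob/ob library of 14 weeks was above every wt library.

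The log2 fold change at 14 weeks minus that at 9 weeks was 1.08 ± 0.37 (SE) for miR-582-3p, 1.24 ± 0.41 for miR-340-5p, 0.93 ± 0.48 for miR-345-5p, 0.88 ± 0.40 for miR-374b-5p and 0.48 ± 0.39 for miR-31-5p. The median over all 187 miRNAs in this fit was 0.68. After rescaling the differences were 0.52 ± 0.30, 0.51 ± 0.33, 0.28 ± 0.34, 0.18 ± 0.28 and -0.23 ± 0.53 in the same order. By the limma interaction test 0 of the 187 passed (0% called), and 48 had an unadjusted p under 0.05. For miR-340-3p and miR-421-3p the difference was 0.69 ± 0.33 (limma adjusted p = 0.192) and 0.51 ± 0.34 (adjusted p = 0.354), and -0.02 ± 0.21 and -0.18 ± 0.27 after rescaling. The effects at both ages entered the choice of the 5, so their differences are given without a test.

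Fold changes over all miRNAs were lower where the mature sequence was richer in G and C, with Pearson's r across miRNAs of -0.21 at 9 weeks (160 miRNAs) and -0.34 at 14 weeks (153), as a description, since miRNAs of a library share its depth and handling. The set holds sequences from both ends of this range. With a linear GC correction per library on top of the rescaling, the log2 fold change at 14 weeks was 0.55 ± 0.19 for miR-340-5p and 0.74 ± 0.15 for miR-374b-5p, less than without it. It was 1.71 ± 0.21 for miR-582-3p, 1.59 ± 0.39 for miR-31-5p and 1.83 ± 0.30 for miR-345-5p. At 9 weeks the corrected values were 0.36 ± 0.19, 0.80 ± 0.24, 1.32 ± 0.27, 1.68 ± 0.27 and 1.33 ± 0.25 in the same order. For miR-340-3p, with 40.9% G and C, they were -0.45 ± 0.17 at 14 weeks and -0.34 ± 0.18 at 9 weeks, so the gap between the arms was 0.70 in place of 0.99 at 9 weeks and 1.0 in place of 1.52 at 14 weeks.

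**Figure D4:**
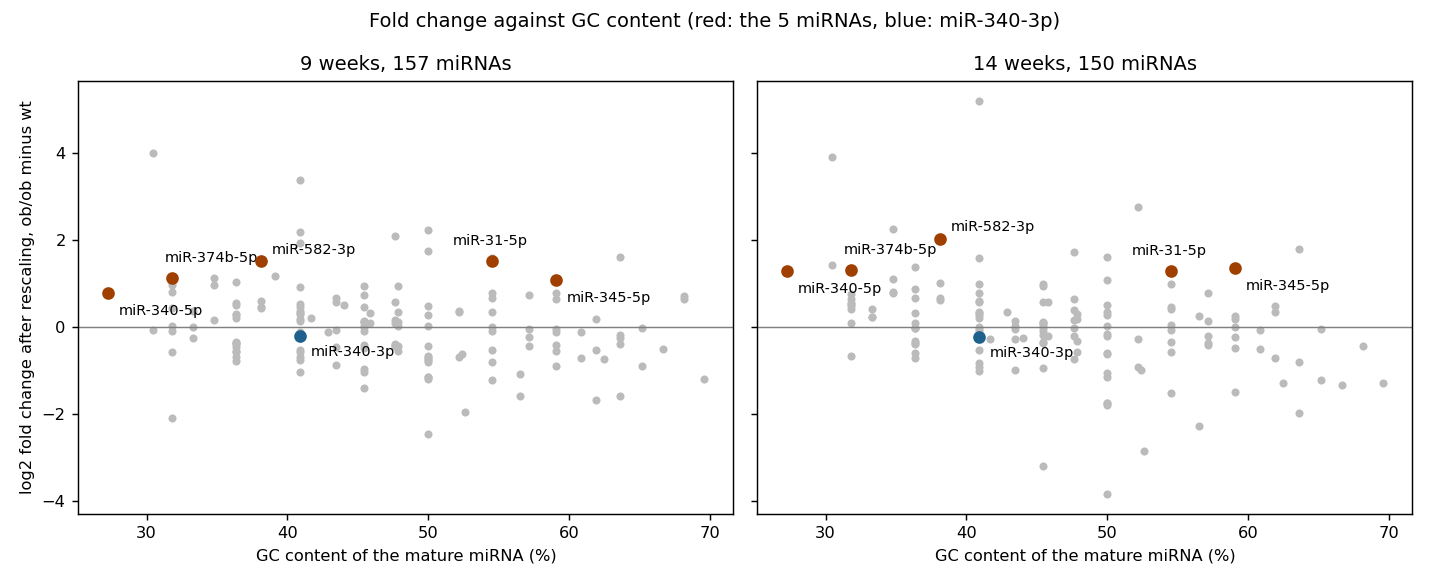
Log2 fold change of ob/ob against wt after rescaling (vertical axis) by GC content of the mature sequence in percent (horizontal axis), with 1 point per miRNA, for 157 miRNAs at 9 weeks and 150 at 14 weeks. miR-340-5p and miR-374b-5p, at 27.3% and 31.8%, stand at the AU-rich end, and miR-31-5p and miR-345-5p, at 54.5% and 59.1%, toward the GC-rich end.

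Likeness was measured as Pearson's r of log2(RPM + 0.5) minus the mean of its age over the 15 libraries, among 168 miRNAs tested at both ages. This r holds the genotype difference by which the 5 were chosen, so r after removing the 4 group means is given beside it. Both are on RPM without rescaling, so a shift in the scale of a whole library enters them. Replicate 1 of wt at 14 weeks had the lowest sum of listed miRNAs (147387 RPM). It was the lowest of its group for miR-582-3p, miR-345-5p, miR-374b-5p and miR-340-5p, and the highest for miR-31-5p. How far r within groups rests on this library or on scaling was not tested. The miRNAs most like miR-31-5p were miR-194-5p (r = 0.93, and 0.72 within groups), miR-192-5p (0.93 and 0.59) and miR-144-5p (0.88 and 0.06). Those most like miR-582-3p were miR-144-5p (0.90 and -0.07), miR-34a-5p (0.89 and 0.02) and miR-365-3p (0.87 and 0.31), none of which followed it closely within groups. miR-345-5p was most like miR-374b-5p (0.92 and 0.71), miR-335-3p (0.90 and 0.86) and miR-19a-3p (0.90 and 0.65). miR-374b-5p was most like miR-34a-5p (0.93 and 0.74), miR-340-5p (0.93 and 0.77) and miR-19a-3p (0.92 and 0.69). miR-340-5p was most like miR-141-3p (0.95 and 0.92), miR-19a-3p (0.94 and 0.77) and miR-16-1-3p (0.93 and 0.84). Among the 10 pairs of the 5, r within groups ran from -0.46, for miR-31-5p with miR-582-3p, to 0.77, with miR-31-5p at 0.04 or less with each of the other 4. miR-340-5p and miR-340-3p had r of 0.09, and 0.59 within groups.

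Markers of other liver cells were examined in the same contrast. As deposited, miR-192-5p of the hepatocyte list and miR-144-5p of the erythroid list were called higher at both ages. Of 3 tested hepatocyte miRNAs, 2 were called higher in ob/ob at each age by limma, and 3 and 1 after rescaling. Of all tested, 5.03% at 9 weeks and 11.7% at 14 weeks were called higher, and 11.3% and 15.5% after rescaling. The 4 listed hepatocyte miRNAs summed to 1100 to 2222 RPM in wt and 3966 to 5524 RPM in ob/ob at 9 weeks. At 14 weeks they summed to 1099 to 1689 and 3169 to 6899 RPM. The untested miR-122-3p averaged 0.461 RPM in wt and 0.359 RPM in ob/ob at 9 weeks, and 0.421 and 0.631 RPM at 14 weeks. miR-192-5p was called at both ages, joined by miR-122-5p at 9 weeks and by miR-194-5p at 14 weeks. miR-192-5p made up most of the sum, with a mean of 5212 RPM in ob/ob at 14 weeks. miR-122-5p, the main miRNA of hepatocytes, averaged 46.3 ± 29.0 RPM (SD) in wt and 166 ± 58 RPM in ob/ob at 9 weeks, a log2 fold change of 2.02 ± 0.55. At 14 weeks it averaged 46.7 ± 39.2 and 54.9 ± 17.9 RPM, with overlapping libraries, and differed by 0.57 ± 0.55 on the log2 scale (limma adjusted p = 0.551). Both miRNAs most like miR-31-5p, miR-194-5p and miR-192-5p, belong to this list. miR-144-5p, the only listed erythroid miRNA, was at 0.521 to 1.49 RPM in wt and 14.7 to 21.7 in ob/ob at 9 weeks, and at 0.331 to 0.974 and 11.6 to 32.4 RPM at 14 weeks, and was called higher at both. Of 4 tested biliary and epithelial miRNAs 1, miR-141-3p, was called higher at 14 weeks and none at 9 weeks (1 and 1 after rescaling). The 6 listed ones summed to 52.1 to 71.5 and 55.5 to 89.0 RPM in wt and ob/ob at 9 weeks and to 24.1 to 56.9 and 53.8 to 104.1 RPM at 14 weeks, with miR-205-5p at 0 in all wt and miR-375-3p at 0 in all ob/ob libraries of 14 weeks. Of the 5 listed myeloid miRNAs, 4 were tested. miR-511-3p, which lies in the mannose receptor gene of macrophages, was called lower at 9 weeks, at -1.07 ± 0.24 on the log2 scale (limma adjusted p = 0.00984), and not after rescaling (-0.56 ± 0.21, adjusted p = 0.0860). miR-155-5p, induced by inflammatory signals, was called higher at 14 weeks, at 1.31 ± 0.32 (adjusted p = 0.0201). After rescaling, miR-146a-5p was called higher at 9 weeks and miR-155-5p at 14 weeks. As deposited, the only fall called was thus at 9 weeks and the only rise at 14 weeks, and after rescaling no fall was called. The untested miR-142a-3p averaged 0.105 RPM in wt and 0.0887 RPM in ob/ob at 9 weeks. At 14 weeks it averaged 0.0211 RPM in wt and 13.5 RPM in ob/ob, where it ran from 0.159 to 18.6 RPM. The 5 myeloid miRNAs summed to 3830 to 7132 RPM in wt and 4406 to 8190 RPM in ob/ob at 9 weeks. At 14 weeks they summed to 3140 to 5434 and 3773 to 5617 RPM. The 2 endothelial miRNAs summed to 42296 to 59286 and 18455 to 45923 RPM at 9 weeks and to 10833 to 63153 and 33631 to 55779 RPM at 14 weeks, with miR-126a-3p called lower at 9 weeks as deposited and not after rescaling. The 7 stellate cell miRNAs, of which 6 were tested, summed to 1385 to 1885 and 1033 to 1644 RPM at 9 weeks. There 3 of them were called lower (1 after rescaling), beside 58 of all 179 tested (18 of 177 after rescaling). At 14 weeks the 7 summed to 496 to 1865 and 1559 to 3011 RPM, with none called (1 higher after rescaling). The 3 lymphocyte miRNAs, none called at either age, summed to 7421 to 7649 and 4935 to 6729 RPM, and to 5075 to 8207 and 5752 to 7982 RPM. The part of these cell types in the levels of the 5 miRNAs was not tested.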

How the data were processed

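Small RNA of Kupffer cells was sequenced from TruSeq libraries, per the labels' protocols. The submitters' processing notes name bcl2fastq, cutadapt, GRCm38.p5 and mm10, while how reads were aligned, counted and annotated is not stated there. Values were deposited by the authors as 1 column per library and taken as RPM, a unit inferred from the values. Each library's low values (under 20 reads) lay within 0.1 reads of whole multiples of a step. Read numbers and depths in the text are values divided by that step, and no count model was used. Intervals cover counting error only.

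From these, log2(RPM + 0.5) was fitted with limma 3.58.1 in R 4.3.3 (trend, robust, Benjamini-Hochberg over all miRNAs tested), for each age alone, on miRNAs with at least 1 RPM in 3 libraries (9 weeks) or 4 (14 weeks). The count test that the design held ready for raw counts did not apply. The script was tested on simulated data. Rescaling divided each library by its median ratio to the geometric mean of its age, over miRNAs found in every library and averaging 5 RPM or more. The GC correction used RefSeq mature sequences (218 of 248). Hosts are from GENCODE vM21. Named were the 5 miRNAs, listed arms of their hairpins and cluster, the 3 most alike of each, and markers. The members and lists were chosen with earlier results of these data known. Libraries were not treated as paired by replicate number, except in the replicate block. Deviations of same-numbered wt and ob/ob libraries from their group means correlated with r of -0.14 to 0.28 at 9 weeks and -0.24 to 0.20 at 14 weeks. For libraries of different number r was -0.38 to 0.34 and -0.22 to 0.26. With 3 and 4 same-numbered pairs, these values cannot settle whether libraries were prepared in pairs.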

Additional observations from a re-analysis of the deposited data

Results flagged for a closer look

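A single library stood far from the other 3 of its group in 4 of the 24 groups of 4 libraries examined, for the 5 miRNAs and their listed partners. Chance marks about 1 in 20 such groups, but this rate does not apply to the 2 groups of miR-582-5p, where any value beside 3 zeros stands apart by construction. miR-582-3p was at 2.31 RPM in wt replicate 2 of 9 weeks, above the other wt libraries. Its exact Poisson 95% interval there (1.57 to 3.28 RPM, on 31 reads) overlaps those of the others, whose upper limits are 1.67 to 2.02 RPM. Its other arm, miR-582-5p, was at 0.447 RPM in the same library on 6 reads, and listed at 0 in the rest of that group. At 14 weeks miR-582-5p was at 0.205 RPM in wt replicate 2, on 8 reads, and listed at 0 in the other wt libraries, and the exact Poisson 95% interval of replicate 2 (0.0885 to 0.404 RPM) overlaps those of the libraries at 0, whose upper limits are 0.153 to 0.406 RPM. miR-421-3p was at 6.39 RPM in wt replicate 1 of 14 weeks, below its group, in the library with the lowest sum of listed miRNAs.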

How the results depend on the processing

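All 165 refitted fold changes of the 5 miRNAs stayed positive, and 14 moved by more than the spread between libraries. The positive sign was largely set in advance, since the 5 were chosen for a rise in these same libraries. At 9 weeks 67 of all miRNAs were called, but 38 after rescaling, 39 with the GC correction and 32 with the replicate block (where wt replicate 4 has no partner), which called 0 of the 5 in place of 2; leaving out single libraries gave 53 to 71. At 14 weeks 26 were called, but 48 after rescaling, 1 in lane 1 alone (0 of the 5) and 51 in lane 2 alone (4 of the 5). Leaving out single libraries gave 13 (ob/ob replicate 3) to 46 (wt replicate 1), and 15 without wt replicate 3. Rescaling without wt replicate 1, chosen after seeing the data, gave 48. The replicate block gave 22 there, with 5 of 5. With the GC correction 36 were called, 17 higher and 19 lower, and 4 of the 5, without miR-340-5p. That call also ended without ob/ob replicate 3, and the call of miR-345-5p when wt replicate 3, or either of ob/ob replicates 2 and 3, was left out. At 9 weeks the call of miR-31-5p needed each of wt replicates 2 and 3 and of ob/ob replicates 1 and 2, and miR-582-3p was lost with the block only. For miR-340-3p at 9 weeks the block gave an adjusted p of 0.123. The difference between ages had 0 calls, 4 without a filter and 0 to 3 without single libraries. The cause of these shifts was not tested. Depth limits miR-582-3p and miR-582-5p in wt.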
